A study of Mus musculus with 2 samples.

Results

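The unfolded protein response and the secretory pathway were followed through 41 genes, called members below, out of 32285 genes in the deposited count tables. The members were chosen by name, with earlier results of these data known, and each was found by its gene symbol. Their unique molecular identifiers (UMIs, each counting 1 captured RNA molecule) were summed per cell type and per library, and plasma cells were set against the other cell types of the same tissue.

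The cells came from optic nerves of Nf1-OPG mice, which develop optic pathway glioma through loss of the tumour suppressor Nf1. The labels give the strain by this name only; as the model is usually made, 1 allele is floxed and removed by Cre under the GFAP promoter and the other is inactive in every cell, so immune cells are heterozygous too. For each library the nerves of 10 mice aged 12 weeks were combined before sorting of live cells. One library came from mice given an antibody to PD-1, the protein of Pdcd1, and the other from mice given an antibody to TIGIT. No untreated library was analysed here, and the protocol in the labels also mentions cell suspensions from meningeal dura without saying whether these entered the libraries.

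Secreted and membrane proteins enter the endoplasmic reticulum (ER) through the Sec61 channel, lose their signal peptide, fold with the help of chaperones and disulfide isomerases, and are extracted for degradation where folding fails. When unfolded protein builds up, the sensors IRE1, ATF6 and PERK raise the folding and degradation machinery and lower protein synthesis. Plasma cells, which secrete antibody at a high rate, depend on the IRE1 and XBP1 arm of this response, while the PERK arm acts through ATF4 and CHOP.

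Barcodes numbered 13997 (anti-PD-1) and 7915 (anti-TIGIT), with 85031565 and 40733655 UMIs in all and medians of 4505 and 4082 UMIs per barcode. Of these, 13275 and 7495 cells were retained, and 163 barcode sequences occurred in both libraries. Marker gates placed 9136 and 5538 retained cells in 13 cell types that had at least 50 cells in each library. Another 2774 and 1379 cells met no gate and 1261 and 422 met several, and neither group was used. Each treatment has 1 library, so no difference between treatments has a replicate check, no test was made, and every interval given covers counting error only at the 95% level.

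Plasma cells numbered 488 after anti-PD-1 and 174 after anti-TIGIT, with medians of 10810 and 14870.5 UMIs per cell. The gate asked for at least 10 UMIs of Jchain, the joining chain of IgA and IgM, and at least 10% of UMIs from immunoglobulin genes, and used no member. Genes outside the gate were then examined as counts per 1000000 UMIs of the cell type (CPM). Sdc1, the plasma cell surface proteoglycan CD138, stood at 120 and 122 CPM in plasma cells (anti-PD-1 first, here and below) and at no more than 10.1 and 5.17 CPM in any other cell type. Tnfrsf17, the survival receptor BCMA, stood at 38.9 and 33.1 CPM against at most 13.5 and 12.5 CPM elsewhere, both in border macrophages. The transcription factor gene Prdm1 was higher in regulatory T cells (119 and 109 CPM) than in plasma cells (76.0 and 64.0 CPM). Pou2af1 was higher in B cells (122 and 222 CPM) than in plasma cells (110 and 127 CPM). Of the cells that met the plasma gate, 361 and 87 also met the gate of another cell type and were left out.

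Immunoglobulin genes took 66.9% and 69.8% of all UMIs in plasma cells, against at most 1.59% and 1.74% in any other cell type, the B cells. Every other gene of a plasma cell is therefore counted within a smaller remainder, and values are given both over all UMIs and with immunoglobulin UMIs left out. The median gene lay 1.11 and 1.17 log2 below the mean of the other cell types in plasma cells over all UMIs, and 0.34 below in each library without immunoglobulin UMIs.

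The promoters of several members share a short element through which ATF6 and XBP1 act together with the factor NF-Y, the ER stress response element. It was searched as CCAAT and CCACG separated by any 9 bases, on both strands of windows from 250 bases before to 50 bases after the annotated start (RefSeq, GRCm38.p6), available for 33 of the 41 members. It was present for 9 members (27.3%) and for 37 of all 27025 genes with a window (0.137%). The element was searched because promoters of several members are known to hold it, so this excess is description only and no test. The 10 matches are shown as matches in sequence only, and whether ATF6 or XBP1 acts through them in these cells was not tested. Each is written 5′ to 3′ in the direction of the element, with its fixed bases in capitals and its spacer in lower case.
Hspa5, 65 bases before the start, chr2:34772025-34772043: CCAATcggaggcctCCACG
Hsp90b1, 212 bases before the start, chr10:86705638-86705656: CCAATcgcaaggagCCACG
Hsp90b1, 107 bases before the start, chr10:86705533-86705551: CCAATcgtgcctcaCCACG
Calr, 162 bases before the start, chr8:84847075-84847093: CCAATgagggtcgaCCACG
Canx, 145 bases before the start, chr11:50325800-50325818: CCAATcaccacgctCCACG
Pdia6, 98 bases before the start, chr12:17266491-17266509: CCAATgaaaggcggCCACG
Creld2, 126 bases before the start, chr15:88819520-88819538: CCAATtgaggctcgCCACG
Dnajc3, 105 bases before the start, chr14:118937827-118937845: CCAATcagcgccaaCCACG
Derl3, 156 bases before the start, chr10:75893242-75893260: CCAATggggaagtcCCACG
Syvn1, 44 bases before the start, chr19:6046532-6046550: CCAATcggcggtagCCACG

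The related element, ATTGG and CCACG separated by any 1 base, was found for 2 members, Herpud1 and Dnajb11, and for 12 of all genes. The Herpud1 match lies 52 bases before the start at chr8:94386377-94386387 and the Dnajb11 match at chr16:22857852-22857862, which lies just past the start.
Herpud1: ATTGGgCCACG
Dnajb11: ATTGGcCCACG
The pentamer CCACG, which both elements contain, occurred for 27 of the 33 members (81.8%) and for 35.5% of all genes. The core TGACGTGG was present for 1 member, Txndc5 (0.714% of all genes), TGACGTCA for no member (2.03% of all genes), and TGATGNAA for 2 members (4.51% of all genes). Derl3 and Creld2, both high in plasma cells, are shown with the 250 bases before their start, neither overlapping an annotated exon, with the element in capitals; both lie on the plus strand and hold the element in reverse.
Derl3, chr10:75893148-75893397: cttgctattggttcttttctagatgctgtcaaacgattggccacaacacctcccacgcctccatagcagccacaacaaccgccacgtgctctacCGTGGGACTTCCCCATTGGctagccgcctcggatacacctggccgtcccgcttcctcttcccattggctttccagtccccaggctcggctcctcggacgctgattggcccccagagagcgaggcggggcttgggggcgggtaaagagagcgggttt
Creld2, chr15:88819396-88819645: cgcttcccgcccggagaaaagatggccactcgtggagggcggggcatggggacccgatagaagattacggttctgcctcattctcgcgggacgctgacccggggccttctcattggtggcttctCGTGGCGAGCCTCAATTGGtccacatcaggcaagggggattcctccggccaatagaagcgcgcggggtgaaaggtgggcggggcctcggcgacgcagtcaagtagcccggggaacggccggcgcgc

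Summed, the members made up a larger share of the RNA of plasma cells than of any other cell type. They accounted for 1.76% (interval 1.75% to 1.77%) and 1.78% (1.77% to 1.80%) of plasma cell UMIs. Over the 12 other cell types the mean was 0.567% and 0.563%. Fibroblasts, which secrete collagen, came next at 0.938% and 0.954%, followed by microglia (0.654% and 0.729%) and B cells (0.657% and 0.656%), which in the anti-PD-1 library did not differ beyond their intervals. The T cell types and oligodendrocytes lay between 0.424% and 0.512%. With immunoglobulin UMIs left out, the plasma cell share was 5.32% and 5.90%. Per cell, the median share of non-immunoglobulin UMIs was 4.61% (quartiles 3.05% and 5.98%) and 5.61% (4.51% and 6.77%).

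**Figure D1:**
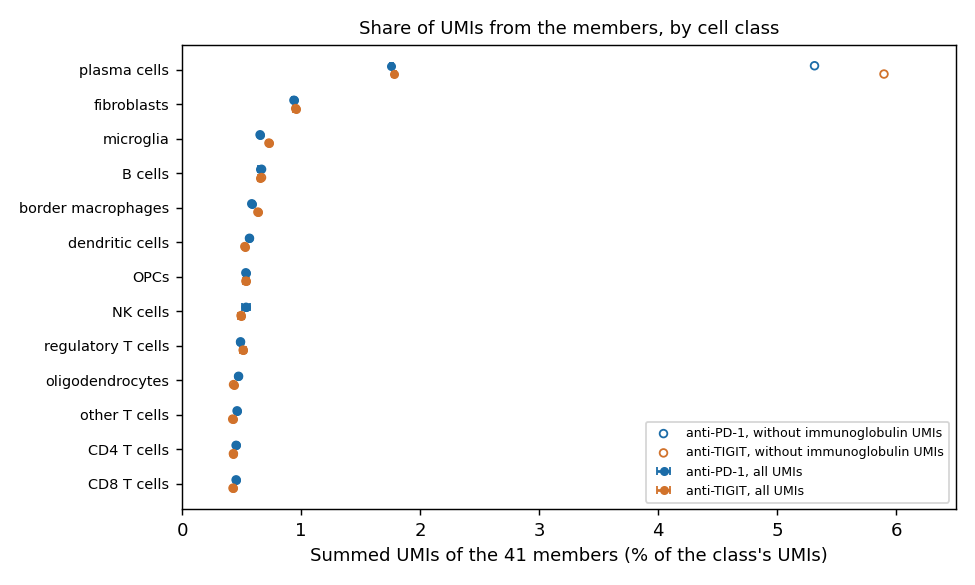
Summed UMIs of the 41 members as a percentage of all UMIs of each cell type (x axis), by cell type (y axis) and library (blue, anti-PD-1; orange, anti-TIGIT). Filled points are shares of all UMIs with 95% exact binomial intervals, and open points leave immunoglobulin UMIs out; plasma cells sit at 1.76% and 1.78%, to the right of fibroblasts at 0.938% and 0.954%, and at 5.32% and 5.90% without immunoglobulin UMIs.

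For single members, the log2 ratio of plasma cells over the mean of the 12 other cell types was taken after adding 5 CPM to each side, and a member was counted as higher or lower when it was at least 2-fold apart in both libraries. By this measure 17 of the 41 members were higher in plasma cells (1.38% of the 16031 genes with at least 50 UMIs were), and 2 were lower (51.1% of genes). Without immunoglobulin UMIs 38 members were higher (4.78% of genes) and none was lower (16.8% of genes). Because the members were chosen with earlier results of these data known, their excess over these shares is description only and no test. The median member had a ratio of 0.92 and 1.09, and of 2.48 and 2.79 without immunoglobulin UMIs, against the gene medians given above. Plasma cells were the highest of the 13 cell types for 25 and 23 members (1.92% and 1.62% of genes), 22 of them the same in both libraries. Fibroblasts were highest for 9 and 10 members, for which no share of all genes is given. Without immunoglobulin UMIs plasma cells were highest for 37 and 38 members (7.75% and 8.18% of genes).

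**Figure D2:**
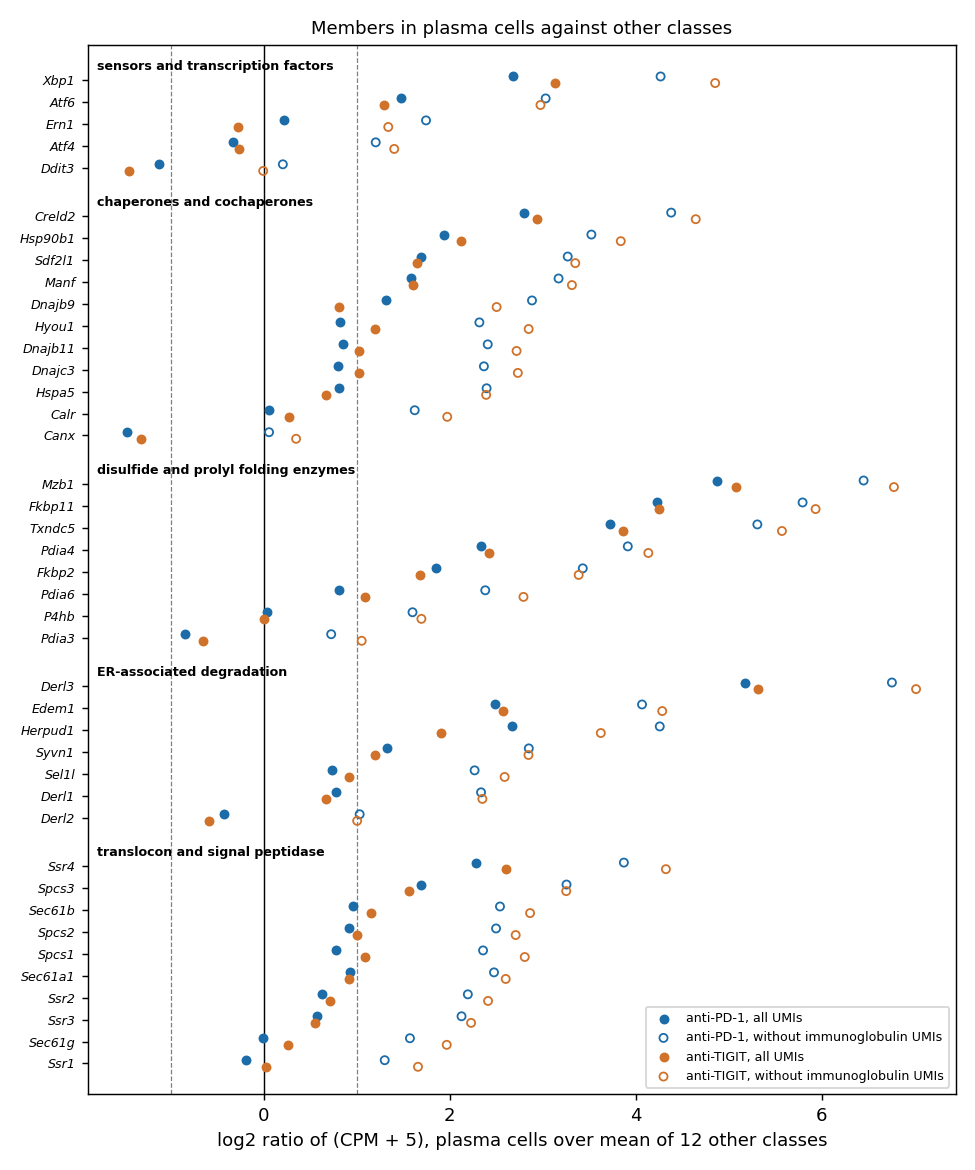
Each member (y axis, grouped by role) is plotted at its log2 ratio of CPM + 5 in plasma cells over the mean of 12 other cell types (x axis), for the anti-PD-1 (blue) and anti-TIGIT (orange) libraries, over all UMIs (filled) and without immunoglobulin UMIs (open). Dashed lines mark 2-fold; Derl3, Mzb1, Fkbp11 and Txndc5 lie farthest right, and Canx and Ddit3 farthest left.

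The sensors and transcription factors divided. Xbp1, whose spliced product is the transcription factor of the IRE1 arm, stood at 825 CPM (801 to 849) and 1052 CPM (1013 to 1092) in plasma cells, and at no more than 216 and 233 CPM in any other cell type, with ratios of 2.68 and 3.14. Atf6, the membrane-bound factor of its own arm, stood at 153 and 138 CPM, with B cells next at 130 and 85.7 CPM and ratios of 1.47 and 1.29. These counts do not separate spliced from unspliced Xbp1 RNA. Both genes were highest in plasma cells of both libraries.

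Ern1, which encodes IRE1 itself, did not follow Xbp1. Plasma cells held 65.5 and 45.1 CPM of Ern1 and the other cell types a mean of 55.4 and 55.8 CPM. NK cells were far above every other cell type, at 345 CPM (273 to 429) and 307 CPM (244 to 382), from 62 and 89 cells. The T cell types other than CD8 T cells held 52.1 to 79.8 CPM. B cells, from which plasma cells derive, held 3.94 CPM and, in the second library, 0 UMIs, which allows up to 5.04 CPM.

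Atf4, the translationally controlled factor downstream of PERK, and Ddit3, which encodes its target CHOP, were not higher in plasma cells when all UMIs were counted. Atf4 stood at 80.7 and 97.9 CPM in plasma cells, the ninth level of 13 in each library, with ratios of -0.33 and -0.27. Without immunoglobulin UMIs the Atf4 ratios turned to 1.21 and 1.40, past 2-fold, and plasma cells held its highest level in both libraries. Ddit3 stood at 15.4 and 14.6 CPM, below every other cell type in both libraries, with ratios of -1.13 and -1.45, or 0.21 and -0.00 without immunoglobulin UMIs. Its highest levels were in microglia, at 75.1 and 169 CPM. The features list Ddit3 under 2 identifiers, 1 of which held no UMI in retained cells, and the rows were summed.

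**Figure D3:**
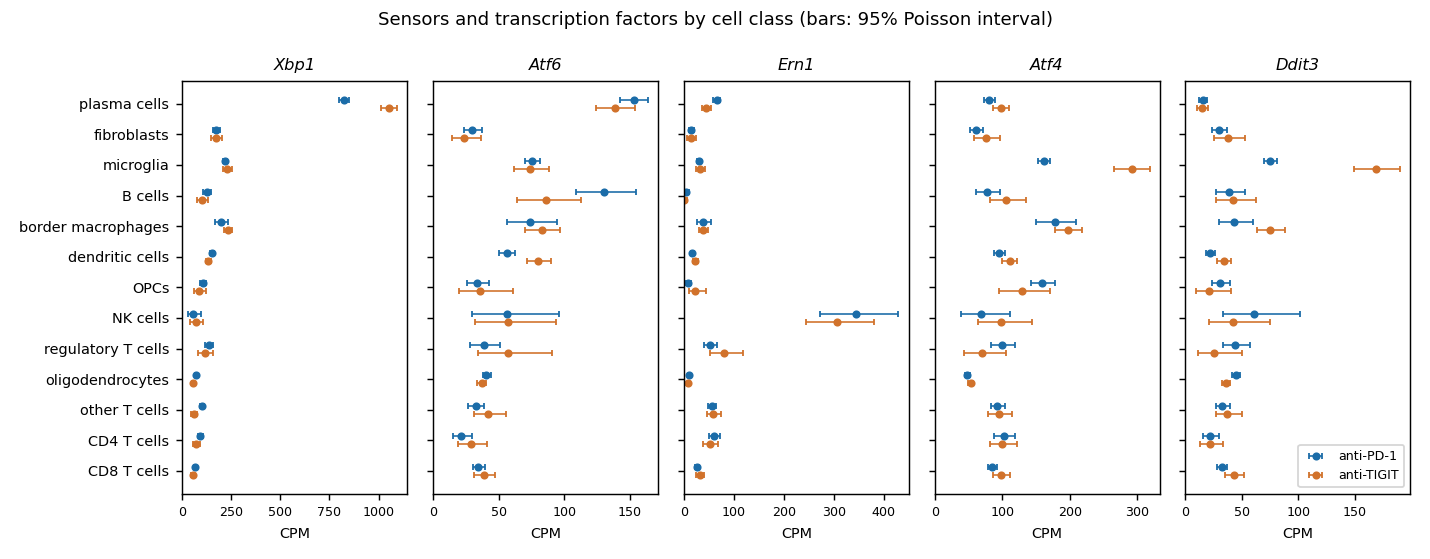
CPM (x axes, 1 panel per gene) of the 5 sensor and transcription factor members in 13 cell types (y axis), for the anti-PD-1 (blue) and anti-TIGIT (orange) libraries, with 95% Poisson intervals. Xbp1 and Atf6 are highest in plasma cells, Ern1 in NK cells (345 and 307 CPM), and Ddit3 is lowest in plasma cells (15.4 and 14.6 CPM).

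Among the 11 chaperones and cochaperones, 4 were higher in plasma cells in both libraries and 1, Canx, was lower. Creld2, a secreted ER stress protein, stood at 394 and 359 CPM against a mean of 52.2 and 42.4 CPM elsewhere, with ratios of 2.80 and 2.94. Hsp90b1, the ER form of HSP90 also called GRP94, stood at 1704 and 2194 CPM against 442 and 500.5 CPM, with ratios of 1.94 and 2.12. Sdf2l1 and Manf, both ER-resident stress response proteins, had ratios between 1.59 and 1.69. All 4 were highest in plasma cells of both libraries.

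Hspa5, the central ER chaperone BiP, had smaller ratios. It stood at 787 and 841 CPM there, with ratios of 0.81 and 0.68, and in the anti-TIGIT library microglia (981 CPM), fibroblasts (916 CPM) and border macrophages (864 CPM) were above plasma cells. The lectin chaperones calnexin and calreticulin, which fold glycoproteins, were not among the members that were higher over all UMIs. Canx stood at 65.6 and 81.3 CPM, the lowest of all 13 cell types in each library, with ratios of -1.46 and -1.31, and at 0.06 and 0.35 without immunoglobulin UMIs. Calr had ratios of 0.06 and 0.27 and was highest in fibroblasts, at 382 and 436 CPM. Dnajc3, which encodes the BiP cochaperone p58IPK, was likewise highest in fibroblasts, at 370 and 389 CPM against 223 and 257 CPM in plasma cells. With Dnajb9, Dnajb11 and Hyou1, which also serve BiP, it had ratios from 0.80 to 1.32, past 2-fold in 1 library at most. Without immunoglobulin UMIs the ratios were 2.40 and 2.39 for Hspa5, 1.62 and 1.97 for Calr, and 2.37 and 2.73 for Dnajc3. Plasma cells then held the highest level of each of these in both libraries.

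In the group of 8 folding enzymes, in which Mzb1 was counted, 5 were higher and none was lower. Mzb1, a B lineage protein that assists antibody assembly, stood at 3412 CPM (3363 to 3462) and 3072 CPM in plasma cells and at 1157 and 962 CPM in B cells. No other cell type held more than 33.3 CPM of it. Fkbp11, a prolyl isomerase of the ER, stood at 141 and 136 CPM, and at most 12.9 CPM elsewhere, in fibroblasts. Txndc5, a disulfide isomerase, stood at 539 and 632 CPM, and at most 109 and 129 CPM elsewhere, with ratios of 3.73 and 3.86. Pdia4 (499.95 and 491 CPM; ratios of 2.33 and 2.43) and Fkbp2 (444 and 390 CPM; 1.85 and 1.68) were also higher. Pdia3, the isomerase that works with calnexin and calreticulin on glycoproteins, went the other way and was lowest of all cell types in plasma cells, at 207 and 263 CPM, with ratios of -0.84 and -0.65. Without immunoglobulin UMIs its ratios turned to 0.73 and 1.05, and its level in the second library was then highest in plasma cells. P4hb, the general disulfide isomerase, was level over all UMIs, at 0.04 and 0.01, and Pdia6, another isomerase, had ratios of 0.81 and 1.09. Without immunoglobulin UMIs these were 1.60 and 1.70 for P4hb and 2.38 and 2.79 for Pdia6, both highest in plasma cells.

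Of the 7 members that act in ER-associated degradation, 4 were higher. Derl3, a derlin of the channel through which misfolded proteins leave the ER, had the largest ratio of all members, 5.18 and 5.31, from 395 CPM (379 to 412) and 322 CPM (301 to 345) in plasma cells and 38.4 and 26.9 CPM in B cells. No other cell type held more than 8.68 CPM of Derl3. Its relatives did not share this pattern. Derl1 had ratios of 0.78 and 0.67, and Derl2, at 31.5 and 33.9 CPM, had ratios of -0.42 and -0.58 and ranked twelfth and last of the 13 cell types. Without immunoglobulin UMIs the Derl2 ratios turned to 1.03 and 1.01 and its level was highest in plasma cells of both libraries. Edem1, a lectin that selects misfolded glycoproteins, stood at 320 and 360 CPM (2.49 and 2.58) and Herpud1, an adaptor of the ubiquitin ligase complex, at 990 and 595 CPM (2.67 and 1.91). Syvn1, the ligase itself, was higher by ratios of 1.33 and 1.19, while its partner Sel1l had ratios of 0.74 and 0.92. Sel1l was highest in oligodendrocytes (99.7 CPM) in the first library and in oligodendrocyte precursor cells (OPCs, 103 CPM) in the second. Without immunoglobulin UMIs it was highest in plasma cells of both libraries, with ratios of 2.27 and 2.59.

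The 10 translocon and signal peptidase members had ratios from -0.19 to 2.61, with 2 higher and none lower. Without immunoglobulin UMIs all 10 were higher. Ssr4, a subunit of the translocon-associated complex, stood at 1422 and 1492 CPM against a mean of 288 and 241 CPM elsewhere (2.28 and 2.61), and Spcs3, a signal peptidase subunit, at 186 and 176 CPM (1.69 and 1.56). The remaining subunits of the same complex were not carried at a like excess, with ratios of 0.63 and 0.71 for Ssr2, 0.57 and 0.55 for Ssr3, and -0.19 and 0.02 for Ssr1. The channel subunits Sec61a1, Sec61b and Sec61g had ratios from -0.01 to 1.15, and the signal peptidase subunits Spcs1 and Spcs2 from 0.78 to 1.09.

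Members with and without the ER stress response element in their window had similar medians in plasma cells. The 9 with a match had medians of 0.81 and 1.09, and 4 of them were higher and 1 lower. The 24 with a window but no match had medians of 0.89 and 1.02, with 9 higher and 1 lower. The matched members included both Derl3 at 5.31 and Canx at -1.46. This compares named genes in these libraries and carries no test.

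Compared with single cell types, plasma cells exceeded B cells at least 2-fold for 25 and 23 members (5.31% and 5.69% of genes with at least 50 UMIs), and lower for 2 and 1 (62.9% and 68.3% of genes). Against fibroblasts, the nearest cell type by summed share, 16 members were higher in each library (6.87% and 8.04% of genes) and 5 and 3 were lower (69.9% and 73.8% of genes). Against dendritic cells 23 and 25 were higher (4.91% and 4.59% of genes) and none was lower (52.2% and 58.7% of genes).

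Each other cell type was also set against the mean of all remaining types, plasma cells included. In fibroblasts the largest ratio was that of Dnajc3 (1.66 and 1.75), followed by Calr and by Fkbp2 (1.05 and 1.21), although the Fkbp2 level itself was highest in plasma cells. In oligodendrocytes, the myelin-forming cells, the leading member was Sel1l (1.15 and 0.94), at 99.7 and 100.4 CPM, and the next was Ssr3, at 164 and 134 CPM. In OPCs it was Fkbp2, at 265 and 271 CPM. In border macrophages it was Dnajb9, a BiP cochaperone (0.82 and 0.93), at 126 and 160 CPM, below plasma cells (171 CPM) in the first library and below microglia (173 CPM) in the second. In dendritic cells it was Sdf2l1 (0.73 and 0.56), and in CD8 T cells Sec61b (0.35 and 0.34). The remaining T cell types had small leading ratios. These were of Derl2 in CD4 T cells (0.15 and 0.17) and regulatory T cells (0.21 and 0.38) and of Sec61b in other T cells (0.19 and 0.13). Ern1 reached 0.55 in regulatory T cells of the anti-TIGIT library, against -0.08 in the other.

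In droplet data, RNA released from plasma cells can be captured with any cell, so each member was set beside Jchain. If all Jchain in a cell type came from plasma cells, the members' UMIs that would come with it can be calculated. In the 12 other cell types the Mzb1 count was a median of 1.02 times that number (0.46 to 37.1), and the upper end is B cells, which held 28.0 and 37.1 times as much. The median was 1.49 for Derl3, 1.79 for Fkbp11 and 15.7 for Txndc5, and 32.6 or more for every other member. Fibroblasts held 22.2 and 87.5 times the Fkbp11 that Jchain would bring (32 and 11 UMIs), and OPCs 9.74 and 21.2 times (13 and 2 UMIs). Oligodendrocytes held 3.99 and 4.75 times the Derl3 (100 and 26 UMIs) and dendritic cells 3.89 and 4.36 times (20 and 7 UMIs).

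The share of cells with a UMI was compared after thinning every cell to 1000 UMIs, which left out 21 and 0 plasma cells and 102 and 36 oligodendrocytes. Median depth before thinning was 10810 and 14870.5 UMIs in plasma cells and 6594 and 6272 UMIs in oligodendrocytes. Derl3 was then seen in 26.3% (22.4% to 30.6%) and 27.0% (20.6% to 34.3%) of plasma cells, and in 0.796% and 0.211% of oligodendrocytes, which are not known to express it. Txndc5 was seen in 34.9% and 40.8% of plasma cells and in 0.840% and 0.845% of oligodendrocytes. Xbp1 was seen in 48.0% and 65.5% of plasma cells and in 6.81% and 4.97% of oligodendrocytes. Without thinning, Derl3 was seen in 71.1% and 91.4%, Txndc5 in 77.3% and 92.0%, and Xbp1 in 82.8% and 97.1% of plasma cells.

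Other genes of these pathways were taken from lists that hold no member and counted by the same rule. By this rule 1.38% of all genes were higher in plasma cells and 51.1% lower. In ER to Golgi transport, 2 of 17 genes passed 2-fold upward in both libraries and none downward, with medians of 0.26 and 0.29. These were Lman1, a cargo lectin (167 and 218 CPM), and Sec24d, a coat subunit (56.9 and 64.0 CPM). In translocation and signal recognition 1 of 13 was higher, the signal peptidase subunit Sec11c (997 CPM in each library, against 318 and 285 CPM elsewhere), and 2 were lower. Sec11a, the other catalytic subunit of the peptidase, was 1 of these, at 43.2 and 47.4 CPM with ratios of -1.33 and -1.24.

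In glycosylation 1 of 10 genes was higher, Krtcap2, a subunit of the oligosaccharyltransferase (567 and 503 CPM), and 1 was lower, Tusc3, an oxidoreductase subunit (5.93 and 4.24 CPM). Among further folding and redox genes 2 of 13 were higher, the ER peroxiredoxin Prdx4 (321 and 317 CPM; 2.64 and 2.59) and Txndc11 (155 and 171 CPM; 2.03 and 2.20), and 3 were lower. In ER-associated degradation 2 of 12 were higher, Edem2 (332 and 337 CPM; 2.54 and 2.75) and the ubiquitin-conjugating enzyme Ube2j1 (179 and 163 CPM; 1.17 and 1.08), and 4 were lower. Without immunoglobulin UMIs the counts of higher genes were 14 of 17, 9 of 13, 8 of 10, 7 of 13 and 7 of 12 in these 5 lists. Of all genes 4.78% were higher on that scale.

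In the PERK and integrated stress response list 3 of 14 genes were higher in plasma cells (1.38% of all genes) and 7 lower (51.1% of all genes). Without immunoglobulin UMIs 4 were higher (4.78% of all genes) and 3 lower (16.8% of all genes). The list medians of -0.23 and -0.38 lay near the gene median on that scale. Chac1, a glutathione-degrading enzyme (27.3 and 23.5 CPM against 1.75 and 1.09 CPM), the factor gene Atf5 (40.6 and 39.7 CPM) and Asns, asparagine synthetase (46.5 and 59.3 CPM), were the higher ones. Atf3, an early stress factor, stood at 39.9 and 15.4 CPM against 314 and 339 CPM elsewhere, and Ppp1r15a, the phosphatase subunit that ends the response, at 38.8 and 33.9 CPM against 146 and 196 CPM. Of 13 genes that respond to tissue dissociation none was higher and 9 were lower, among them Junb at 321 and 284 CPM against 2718 and 2646 CPM. Without immunoglobulin UMIs 2 of these were higher and 2 lower, with medians of -0.17 and -0.32. Their part in the low values of Ddit3 and Atf3 was not tested.

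Within plasma cells, the members were compared by the isotype of the antibody. Cells were called IgA or IgG when at least 80% of their heavy-chain constant UMIs were of that class, which gave 214 and 94 IgA cells and 243 and 76 IgG cells. The summed share was 1.77% and 1.91% in IgA cells and 1.74% and 1.64% in IgG cells. IgG cells held the higher immunoglobulin share in both libraries, at 68.3% and 73.6% of UMIs against 66.1% and 66.7%, and without immunoglobulin UMIs the order of the summed shares turned, at 5.23% and 5.73% for IgA and 5.49% and 6.21% for IgG.

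Txndc5 separated the isotypes more than any other member. It stood at 864 and 974 CPM in IgA cells and at 266 and 276 CPM in IgG cells. The log2 ratio of IgA over IgG was 1.70 (1.58 to 1.82) and 1.82 (1.65 to 1.998), and 1.61 and 1.48 without immunoglobulin UMIs. On the scale with 5 CPM added it was the only member at least 2-fold higher in IgA cells in both libraries (0.361% of 5547 genes). None was 2-fold lower (0.162% of genes). Immunoglobulin genes, which define the isotypes, were left out of these 5547. Of all those genes only Btla, Tnfrsf17 and Tigit had a larger ratio in the library where their ratio was smaller. Txndc5 lies on chromosome 13 at 38500079 to 38528824, minus strand.

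**Figure D4:**
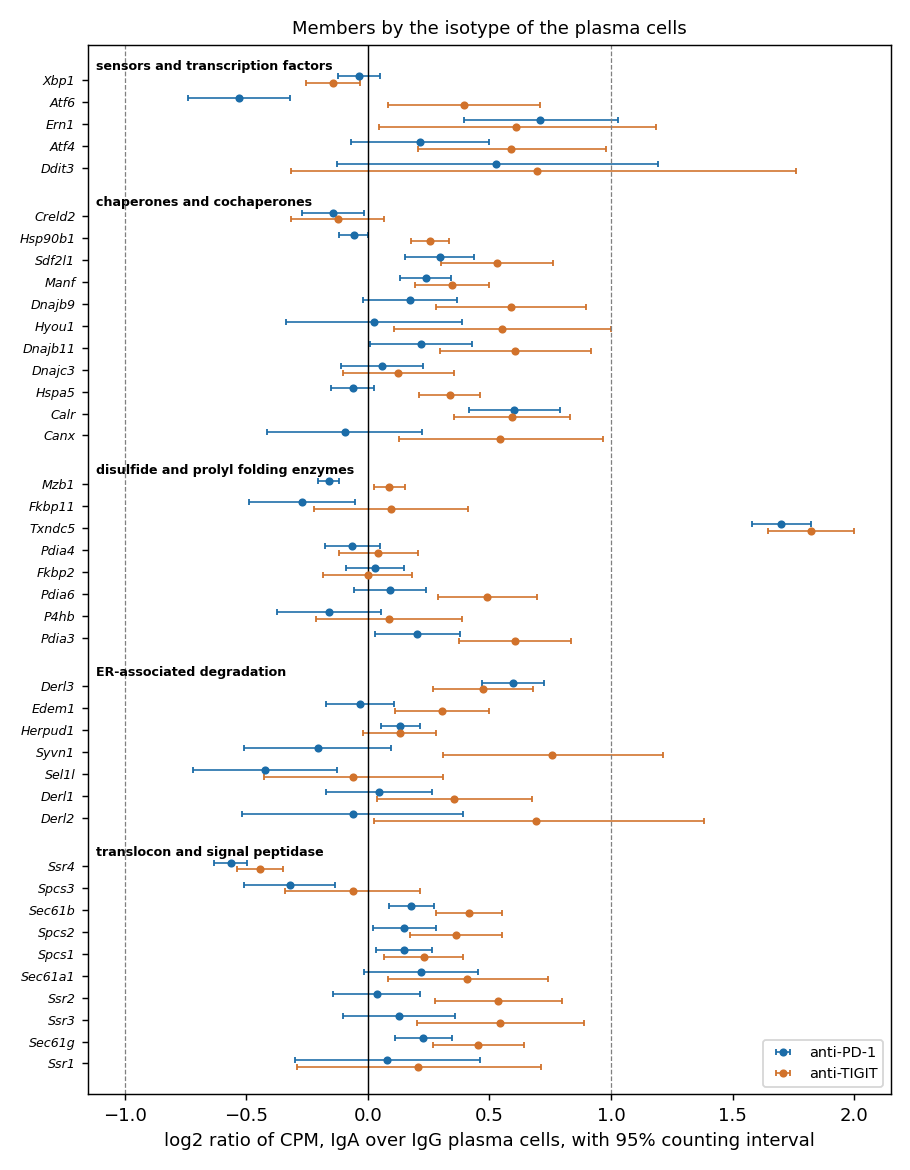
Log2 ratio of CPM in IgA over IgG plasma cells (x axis) for each member (y axis, grouped by role), in the anti-PD-1 (blue) and anti-TIGIT (orange) libraries with 95% exact counting intervals; dashed lines mark 2-fold. Txndc5 lies at 1.70 and 1.82, Ssr4 lies left of 0 in both libraries, and in the anti-TIGIT library most members lie right of 0.

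With Txndc5, 12 members had intervals above 0 in both libraries (7.05% of genes), the other 11 all of them under 2-fold on the scale with 5 CPM added. These ratios are over all UMIs, so the larger immunoglobulin share of IgG cells raises each of them by construction. The intervals were not counted without immunoglobulin UMIs. An interval is also narrower for a gene with more UMIs, so these shares depend on how abundant the members are. Derl3 stood at 483 and 371 CPM in IgA cells and 319 and 267 CPM in IgG cells, with ratios of 0.60 and 0.47. Calr had ratios of 0.60 and 0.59 and Ern1 of 0.71 and 0.61. Ssr4 alone had intervals below 0 in both libraries (0.757% of genes), at 1662 and 1738 CPM in IgG cells against 1124 and 1277 CPM in IgA cells, with ratios of -0.56 (-0.63 to -0.50) and -0.44 (-0.54 to -0.35). The other 28 members had an interval that held 0 in at least 1 library or changed sign between libraries, as Atf6 did at -0.53 and 0.39. The median over all tested genes was 0.08 and 0.32, so small positive ratios in the second lie near that of the median gene. In that library the lower interval ends of Derl3 (0.27) and Ern1 (0.05) lay below this median, and that of Calr (0.36) above it.

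Between the treatments, the members differed little in plasma cells. Taking anti-PD-1 over anti-TIGIT, none of the 41 was past 2-fold upward (3.05% of 5873 genes) or downward (1.11% of genes). The summed members stood at 17575 CPM and 17830 CPM, a log2 ratio of -0.02 (-0.04 to -0.00), or -0.15 without immunoglobulin UMIs. The sign of this sum turned in several other choices of plasma cells, given with the alternatives in the closing section. By counting intervals alone, 9 members lay above 0 (14.2% of genes), 14 below (8.48% of genes), and 18 held 0. Such an interval is narrower for a gene with more UMIs, so these shares also depend on how abundant the members are. Treatment, pool of mice and library are the same split here, and their parts cannot be told apart.

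Herpud1 showed the largest difference in plasma cells. It stood at 990 CPM (5338 UMIs) and 595 CPM (1545 UMIs), a log2 ratio of 0.73 (0.65 to 0.82). With 5 CPM added, the ratio was 0.77 in IgA cells alone and 0.77 in IgG cells alone, 0.65 in cells with Y-linked transcripts, and 0.60 without immunoglobulin UMIs. After thinning to 1000 UMIs, Herpud1 was seen in 52.7% (48.0% to 57.3%) and 36.8% (29.6% to 44.4%) of plasma cells. In other cell types Herpud1 had ratios of both signs, from 0.41 (0.10 to 0.74) in CD8 T cells to -0.65 (-1.21 to -0.06) in regulatory T cells.

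Ern1 followed, at 65.5 and 45.1 CPM from 353 and 117 UMIs, a ratio of 0.54 (0.23 to 0.85). Derl3 (0.29), Sdf2l1 (0.25) and Sec61g (0.22) were the next highest in the anti-PD-1 library. Lower there were Hyou1, an ER chaperone of the HSP110 family (49.9 and 70.1 CPM; -0.49, -0.77 to -0.21), Calr (187 and 250 CPM; -0.42), Hsp90b1 (1704 and 2194 CPM; -0.36), Sel1l (-0.36) and Xbp1 (825 and 1052 CPM; -0.35, -0.42 to -0.28). Xbp1 and Herpud1, both high in plasma cells of each library, thus differed between the libraries in opposite directions. Sec61g was higher in the anti-PD-1 library in every cell type compared, with each interval above 0. Its ratios ran from 0.22 in plasma cells to 0.81 in NK cells.

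**Figure D5:**
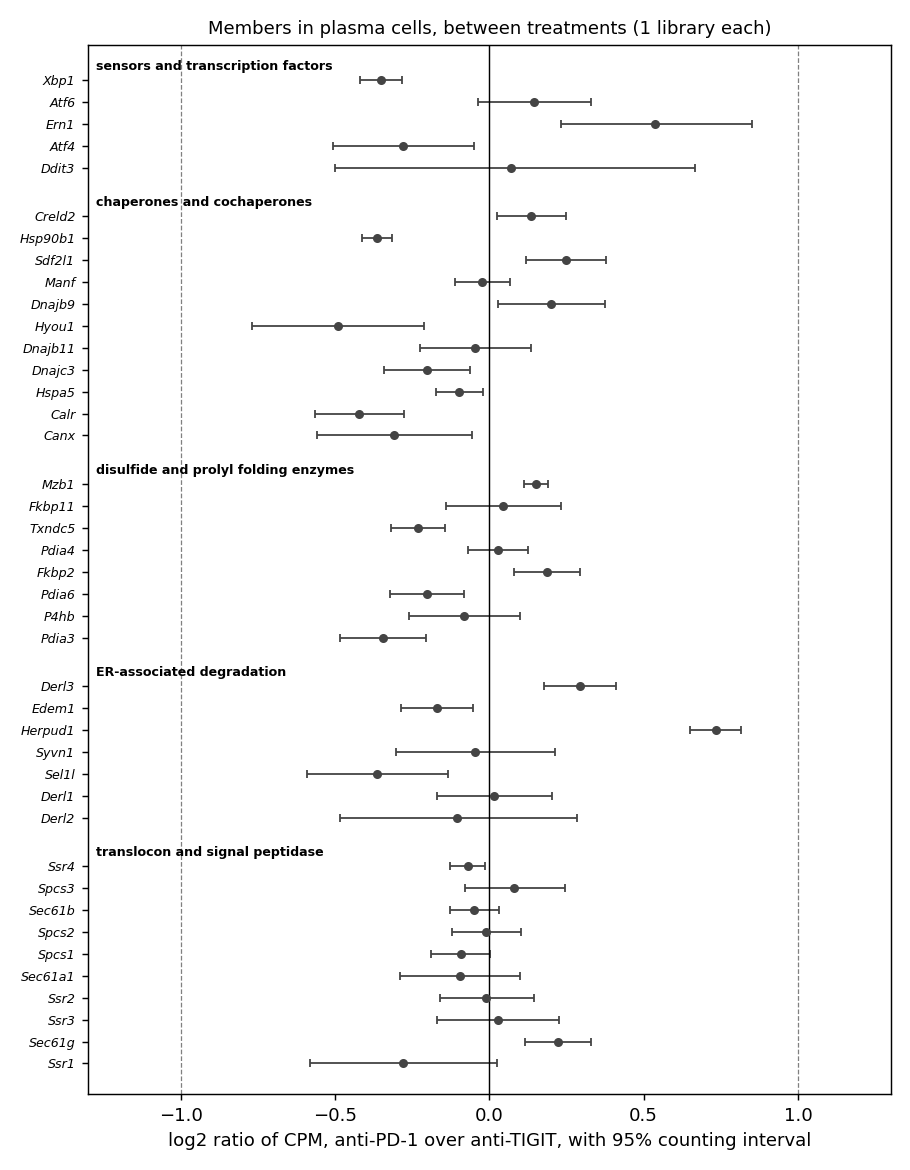
Log2 ratio of CPM in plasma cells of the anti-PD-1 over the anti-TIGIT library (x axis) for each member (y axis, grouped by role), with 95% exact counting intervals; each treatment is 1 library. All 41 points lie within the dashed 2-fold lines, with Herpud1 at 0.73 and Hyou1 at -0.49 the farthest apart.

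The plasma cells of the libraries were not alike in composition. Of the anti-PD-1 plasma cells 103 held Xist and 98 held Y-linked transcripts, and of the anti-TIGIT plasma cells 4 and 84. IgA cells were 214 of 488 and 94 of 174. Median depth was 10810 and 14870.5 UMIs. In Xist-positive cells alone the summed ratio was 0.71 and 19 members were past 2-fold, resting on 4 cells of the anti-TIGIT library. No share of all genes is given for that setting.

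Outside plasma cells, members with at least 50 UMIs were past 2-fold between the treatments, with 5 CPM added, in these 4 cases. Mzb1 stood at 33.3 and 7.58 CPM in CD8 T cells (1.92% of genes were past 2-fold upward), 21.9 and 3.15 CPM in oligodendrocytes (1.88% of genes) and 33.3 and 9.47 CPM in other T cells (2.21% of genes). Jchain was 2.89, 3.26 and 2.38 times as high in the anti-PD-1 library in the same cell types. The Mzb1 folds there, without 5 CPM added, were 4.40, 6.96 and 3.51. In oligodendrocytes Derl3 stood at 5.81 and 1.90 CPM (100 and 26 UMIs). Its log2 ratio was 1.61 (0.98 to 2.29), or 0.65 with 5 CPM added. Members with fewer than 50 UMIs were not called, such as Derl3 in CD8 T cells (24 and 0 UMIs, the 0 allowing up to 1.26 CPM). With CD8 T cells taken from clusters instead of gates the Mzb1 ratio turned to -1.01. The part of plasma cell RNA in these values was not tested.

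The other case was Ddit3 in microglia, at 75.1 and 169 CPM, a log2 ratio of -1.17 (-1.37 to -0.96), where 2.26% of 9538 genes were 2-fold lower. Over all alternatives, on the scale with 5 CPM added, it lay between -1.23 and -0.92. The next lowest members with intervals below 0 were Atf4 (162 and 291 CPM; -0.85), Dnajb9 (108 and 173 CPM; -0.68) and Syvn1 (-0.57), with Hspa5 (680 and 981 CPM) at -0.53. The highest were Sec61g (281 and 183 CPM; 0.62), Sdf2l1 (193 and 148 CPM; 0.38) and Ssr4 (482 and 375 CPM; 0.36). Sec61g was higher in the anti-PD-1 library in every other cell type too. Of the 39 members tested in microglia, 13 had intervals below 0 (29.4% of genes) and 6 above (8.63% of genes). The summed members lay at -0.16 (-0.18 to -0.13) and the median gene at -0.19, and relative to that gene the sum was 0.0375.

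Genes of tissue handling were also compared between the libraries in microglia. Of 13 such genes 2 were past 2-fold downward (2.26% of genes), the heat-shock genes Hspa1a (71.3 and 225 CPM) and Hspa1b (29.7 and 131 CPM). The list median was -0.45, beside -0.19 for the median gene. In the PERK and integrated stress response list 1 of 11 genes tested there was past 2-fold downward, Ddit4, a stress-induced inhibitor of mTORC1 (35.3 and 102 CPM), and the list median was -0.06. The microglia also differed in depth, with medians of 6551 and 3832.5 UMIs per cell. The part of handling and depth in the Ddit3 value was not tested.

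In the cell types other than plasma cells and microglia the summed members differed by -0.12 to 0.13 log2. The largest was in oligodendrocytes, at 4732 and 4318 CPM (0.13, 0.12 to 0.15), where 33 of 40 tested members lay above 0 (45.1% of genes), 19 with intervals above 0 (16.6% of genes) and 1 below (20.7% of genes), and the median member was 0.10 against -0.02 for all genes. In the same cells 5 of 13 handling genes were past 2-fold upward (1.88% of genes), with a list median of 0.84, and their part was not tested. In border macrophages the sum was lower (5841 and 6360 CPM; -0.12, -0.17 to -0.07).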

How the data were processed

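Live cells from optic nerves were profiled with a 5′ droplet kit. The deposited values are whole-number UMI counts per gene and barcode, made by the authors with Cell Ranger 8.0.0 (anti-PD-1) and 8.0.1 (anti-TIGIT), per the file headers, on mm10, per the submitters' processing notes, which also name Seurat 5.0.3 and R 4.1.1. The version differs between the libraries, so its part cannot be told apart from treatment.

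Barcodes under 200 genes (39 and 89) or above 10% mitochondrial UMIs (107 and 176) were dropped. Scrublet (expected rate 0.8% per 1000 cells) removed 576 and 155 doublets. Cell types were gated on at least 3 marker genes with a UMI (5 for oligodendrocytes), none a member, and cells meeting several gates were left out. The plasma gate first counted only immunoglobulin constant genes and Jchain and kept 109 and 31 cells, because most immunoglobulin UMIs of these 5′ libraries lie on variable segments. It was changed to all immunoglobulin genes after those shares were seen, and the first gate is an alternative. Members and lists were chosen with earlier results of these data known. Of 15 further folding genes 13 were in the files by the listed symbols.

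Counts were summed per cell type and library, divided by the summed UMIs and given as CPM with exact Poisson intervals. Shares have exact Clopper-Pearson intervals and CPM ratios exact conditional binomial intervals, all at 95%. Calls used log2 ratios with 5 CPM added, genes with at least 50 UMIs and 2-fold. The calculation was tested on simulated data. Genes were named by a rule of size: the 12 members with the largest and the 5 with the smallest mean ratio in plasma cells, up to 5 members per direction between treatments, the leading member of each other cell type, and up to 3 genes per direction of each list. Others are named for their role, after their values were seen. IgA and IgG comparisons, promoter matches (RefSeq windows, GRCm38.p6) and gene positions (GENCODE vM21, GRCm38) were added to these. Alternatives were gates, clusters, filters, pseudocounts, thinning, scaling, isotype and sex. PCR duplicates are collapsed by UMI, and the intervals do not cover the spread between mice. Analyses ran in Python 3.11.15 with scanpy 1.11.5 and leidenalg 0.10.2 for cells, scipy 1.17.1 for intervals, and pandas 2.3.3 and matplotlib 3.10.9.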

Additional observations from a re-analysis of the deposited data

Results flagged for a closer look

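Ern1, the gene of the sensor IRE1, had ratios of plasma cells over the mean of the other cell types with opposite signs in the libraries, at 0.22 in the anti-PD-1 library and -0.28 in the anti-TIGIT library. The difference between the libraries was not tested. Without immunoglobulin UMIs both ratios were above 0, at 1.75 and 1.34. Sec61g (-0.01 and 0.26) and Ssr1 (-0.19 and 0.02) also changed sign, with 1 value of each close to 0.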

How the results depend on the processing

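Each treatment has 1 library, so no test or spread between mice was available and every value rests on counting alone. Depth limits members with few UMIs, such as Ddit3 in plasma cells. No paired analysis was possible because each treatment has a single library. Of 1351 recomputed values, 840 moved by no more than the counting interval, or by no more than 1.5 times for counts. The log2 ratio of plasma cells over other types stayed above 0 in every alternative. For anti-PD-1 and anti-TIGIT it was 3.23 and 3.39 without immunoglobulin UMIs, 2.75 and 2.83 relative to the median gene, 1.64 and 1.76 in IgA cells, 1.62 and 1.54 in IgG cells, 1.65 and 0.96 in Xist-positive cells, 1.80 and 1.80 in Y-transcript-positive cells, 1.57 and 1.60 with Leiden clusters, 1.59 and 1.74 after thinning, 1.56 and 1.73 with looser and 1.66 and 1.63 with stricter gates. A further 3 settings were chosen after seeing the data. The ratio was 1.57 and 1.63 with all 849 and 261 plasma-gated cells, those that also met another gate kept in. It was 1.49 and 1.44 with the first gate, and 1.63 (anti-TIGIT) for gated cells of the plasma cluster. The summed shares in the same order of settings, with none for the median gene, were 5.32% and 5.90%, 1.77% and 1.91%, 1.74% and 1.64%, 1.81% and 1.11%, 1.97% and 1.92%, 1.71% and 1.71%, 1.66% and 1.83%, 1.65% and 1.81%, 1.81% and 1.76%, 1.69% and 1.75%, 1.95% and 1.80%, and 1.75%. Members at least 2-fold higher in plasma cells were 38 without immunoglobulin UMIs and 34 relative to the median gene.

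The ratio of the summed members between treatments in plasma cells changed sign with the choice of cells. It was 0.0902 in IgG cells, 0.71 in Xist-positive cells (4 anti-TIGIT cells), 0.0331 in Y-transcript-positive cells, 0.0009 with Leiden clusters, 0.0165 for gated cells of the plasma cluster, 0.11 with the first gate and 0.0393 with stricter gates. It stayed negative at -0.11 in IgA cells, -0.15 without immunoglobulin UMIs, -0.14 after thinning and -0.13 with looser gates. It was also negative at -0.0488 with cells that also met another gate kept in, and at -0.0561 relative to the median gene. Past 2-fold upward were 19 members in Xist-positive cells and 1 with the first gate, with no share of all genes given for either. Without immunoglobulin UMIs the plasma cell ratios of Canx turned to 0.0585 and 0.35 and that of Ddit3 (anti-PD-1) to 0.21, and Pdia3 (0.73 and 1.05), Derl2 (1.03 and 1.01) and Atf4 (1.21 and 1.40) also turned from below 0, as leaving out those UMIs raises every remaining plasma cell level by construction. With Leiden clusters the treatment ratio of Mzb1 in CD8 T cells turned to -1.01, and those of the summed members to -0.13 in CD8 and -0.10 in CD4 T cells. The last was -0.0182 with stricter gates, and the sum in microglia, -0.16, was 0.0375 relative to the median gene. For the settings that changed the cells, the cause was not tested.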
